A study of Mus musculus with 12 samples.

Results

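The genes described here are 10 regulators of the ubiquitin steps of NF-kB signaling, taken by symbol (Tnfaip3, Tnip1, Cyld, Birc3, Traf1, Traf2, Traf3, Traf6, Peli1 and Rnf31) from 23361 symbols in the expression tables. Their mRNA was measured by poly-A RNA-seq in bone marrow-derived macrophages (BMDMs) of wild-type C57BL/6 mice aged 8 to 12 weeks, grown from marrow for 6 days in L929 supernatant, which supplies M-CSF. Control cells received no further stimulus, IL-4 cells received IL-4 at 20 ng/ml for 24 h, LPS cells received LPS at 100 ng/ml for 3 h, and IL-4+LPS cells received IL-4 for 24 h and then LPS for 3 h. The LPS dose is that of the labels, and the study's methods give it in a different unit. Replicates 1 to 3 were measured in each of the 4 groups, 12 samples in all, and the comparisons ask how IL-4 changes the macrophage before and during a response to LPS. IL-4 polarizes macrophages to the alternative state, while LPS, from the bacterial outer membrane, activates TLR4. These are cultures without other cell types added. The study's figure legend for this experiment describes 3 individual animals from more than 1 independent experiment. Nothing in the labels says which animal or experiment a replicate number marks, so the p-values measure the spread between these samples.

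Signals from TLR4 and TNF receptors reach NF-kB through ubiquitin chains that are built on adaptor proteins and hold the kinase complexes in place. TRAF proteins, cIAPs, Pellino proteins and the linear ubiquitin chain assembly complex (LUBAC) build such chains, whereas A20 and CYLD take them apart. Several of these regulators are themselves NF-kB target genes, A20 being the best-known feedback inhibitor. The proteins are therefore spread over both the forward and the inhibitory arm of the pathway.

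Expression is given as FPKM (fragments per kilobase of transcript, relative to the fragments mapped in a sample), which is scaled for gene length. Tests used log2(FPKM + 1) over 11191 rows that reached 1 FPKM in at least 1 sample, and all 10 genes passed this filter. A gene is called higher or lower when its Benjamini-Hochberg adjusted p from limma is below 0.05. Fragment counts were not in the tables, so absolute depth was unknown, and relative depth ran from 0.99 to 3.29 with control replicate 1 set to 1. All 6 macrophage marker genes measured were above 1 FPKM in every group. Their sum, mostly Lyz2, was 19158 to 20531 FPKM in control, 7556 to 7770 in IL-4, 15380 to 16609 in LPS and 6551 to 6934.5 in IL-4+LPS. The 4 T and NK cell markers summed to at most 0.18 FPKM and the 3 stromal markers to at most 0.19. The 4 B cell markers summed to 0.75 to 4.36 FPKM over all groups, and the 3 mast cell and basophil markers to at most 1.91. The 3 dendritic cell markers summed to 2.18 to 3.03 FPKM in IL-4+LPS and to at most 0.82 in the other groups. The 4 measured neutrophil markers, all above 1 FPKM, summed to 64.8 to 142 FPKM in control, 24.3 to 65.4 in IL-4, 72.2 to 182 in LPS and 51.4 to 128 in IL-4+LPS. Their part in the changes below was not tested, and fewer cells of a type cannot be told apart from less RNA per cell. Retnla, which IL-4 induces, was at 11617 FPKM or more in IL-4 and at 19.5 FPKM or less in control. Cxcl10, which LPS induces, was at 2429.6 FPKM or more in LPS and at 4.79 or less in control. In IL-4+LPS both were high, Retnla at 9556 FPKM or more and Cxcl10 at 1027 or more. Of the other genes checked, Arg1 (15.05 FPKM or more) and Il1b (478 or more) were also above control there, at most 0.26 and 6.44. Mrc1, checked for IL-4, was 114 to 176 FPKM in IL-4+LPS, 234 to 284 in IL-4 and 167 to 198 in control. Tnf, checked for LPS, had a median of 2346 FPKM in IL-4+LPS, 1357 in LPS and 16.5 in control.

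The replicate 1 samples stood apart in all groups. On the first component of the within-group deviations, which held 28.2% of that variance, replicate 1 scored 15.6 to 33.1 and the others -18.5 to -4.5. In both LPS-treated groups replicate 1 was the lowest sample for Tnfaip3, Tnip1, Birc3, Traf1, Traf2 and Rnf31, and the highest for Cyld, Traf3 and Traf6. Results for the 10 genes are therefore given with replicates 2 and 3 only wherever that fit changes a call, and counts of other pathway genes are given from both fits. The fit without replicate 1 has 2 samples per group. Leaving out the samples that stood apart narrows the spread by selection, so its calls are no firmer than those from all samples.

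The start sites of these genes differ in whether they hold a kappaB consensus, the DNA motif bound by NF-kB. RefSeq promoter windows (GRCm38.p6, the assembly called mm10, from 250 bases before to 50 after a start) were found for all 10 genes, 11 windows in total. On either strand the 10-letter kappaB consensus was present in 4.51% of all 32851 windows, and in windows of Tnfaip3, Tnip1, Cyld and Traf3. The 160 bases before the start are shown for these 4 genes because they hold every match, in capitals where the bases match. They lie at chr10:19015411-19015570 (minus strand), chr11:54962941-54963100 (minus strand), chr8:88696868-88697027 (plus strand) and chr12:111166210-111166369 (plus strand), each read 5′ to 3′ on the gene's strand.
Tnfaip3: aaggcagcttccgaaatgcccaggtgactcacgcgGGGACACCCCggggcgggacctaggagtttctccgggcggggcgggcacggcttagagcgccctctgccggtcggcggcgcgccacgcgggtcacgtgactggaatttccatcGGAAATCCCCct
Tnip1: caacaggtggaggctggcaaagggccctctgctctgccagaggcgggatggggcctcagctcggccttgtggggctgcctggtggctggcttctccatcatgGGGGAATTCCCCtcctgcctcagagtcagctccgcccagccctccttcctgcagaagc
Cyld: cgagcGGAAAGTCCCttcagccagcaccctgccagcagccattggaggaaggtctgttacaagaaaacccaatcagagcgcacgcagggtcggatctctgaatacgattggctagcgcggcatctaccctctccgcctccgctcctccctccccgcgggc
Traf3: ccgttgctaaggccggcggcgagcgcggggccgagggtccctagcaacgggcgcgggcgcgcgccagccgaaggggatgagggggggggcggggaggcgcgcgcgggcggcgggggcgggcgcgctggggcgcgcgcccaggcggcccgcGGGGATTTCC
Tnfaip3 held 2 separate matches, beginning 125 and 12 bases before the start, and Tnip1 held 3 overlapping matches beginning 58, 57 and 56 bases before it. Cyld held 1 match at 155 bases and Traf3 1 match at 10 bases before the start. No match was found in the windows of Birc3, Peli1, Rnf31, Traf1, Traf2 and Traf6, which says only that these letters are not in these windows. The STAT6 motif (TTC and GAA 4 bases apart), present in 6.95% of windows, was found in Tnfaip3 alone, at 242 bases before the start. Of the genes with a kappaB match, Tnfaip3 and Tnip1 were called higher in LPS than in control, and Cyld and Traf3 did not pass that test. Cyld and Traf3 were called higher with LPS after IL-4, as given below. Birc3, Peli1, Rnf31, Traf1 and Traf2 were called higher in LPS without a match in these windows. The start that RefSeq gives Traf3 lies upstream of the first base of the gene in the expression tables.

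LPS raised 7 of the 10 genes in naive macrophages and lowered none. The 7 were Tnfaip3, Tnip1, Birc3, Peli1, Rnf31, Traf1 and Traf2, with mean levels 3.57 to 35.5 times those in control. Of all rows tested, 16.9% were called higher and 57.7% lower in this comparison. The median log2 fold change was 2.06 over the 10 genes and -0.44 over all rows. That median for all rows became -0.14 after median scaling, and the calls then moved from 1887 higher and 6462 lower rows to 2966 and 4454. Cyld, Traf3 and Traf6 did not pass the test.

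Among the inhibitors, Tnfaip3 (chr10:19000910-19015410, minus strand), which encodes A20, was 11.4, 10.2 and 11.7 FPKM in control replicates 1 to 3 and 231, 445 and 426 in LPS. Every LPS sample was far above every control sample, with replicate 1 at the low end. The mean went from 11.1 ± 0.78 to 367 ± 118 FPKM (SD, n = 3), a log2 fold change of 4.87 (SE 0.29, limma adjusted p = 1.5e-07). Tnfaip3 thereby moved from the 54.3rd to the 98.4th percentile of tested rows. Tnip1 (chr11:54910787-54962940, minus strand), whose product ABIN1 binds ubiquitin and A20, was 29.5, 29.6 and 30.2 FPKM in control and 303, 448 and 428 in LPS. It was already the most abundant of the 10 mRNAs before stimulation, at 29.8 ± 0.36 FPKM, and its log2 fold change was 3.66 (SE 0.19, adjusted p = 6.73e-08). Cyld (chr8:88697028-88751946, plus strand) encodes the other deubiquitinase and behaved differently. It was 7.33, 6.52 and 6.51 FPKM in control and 8.52, 7.05 and 7.45 in LPS, with overlapping ranges. Its log2 fold change was 0.15 (95% CI -0.05 to 0.36, adjusted p = 0.151).

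**Figure D1:**
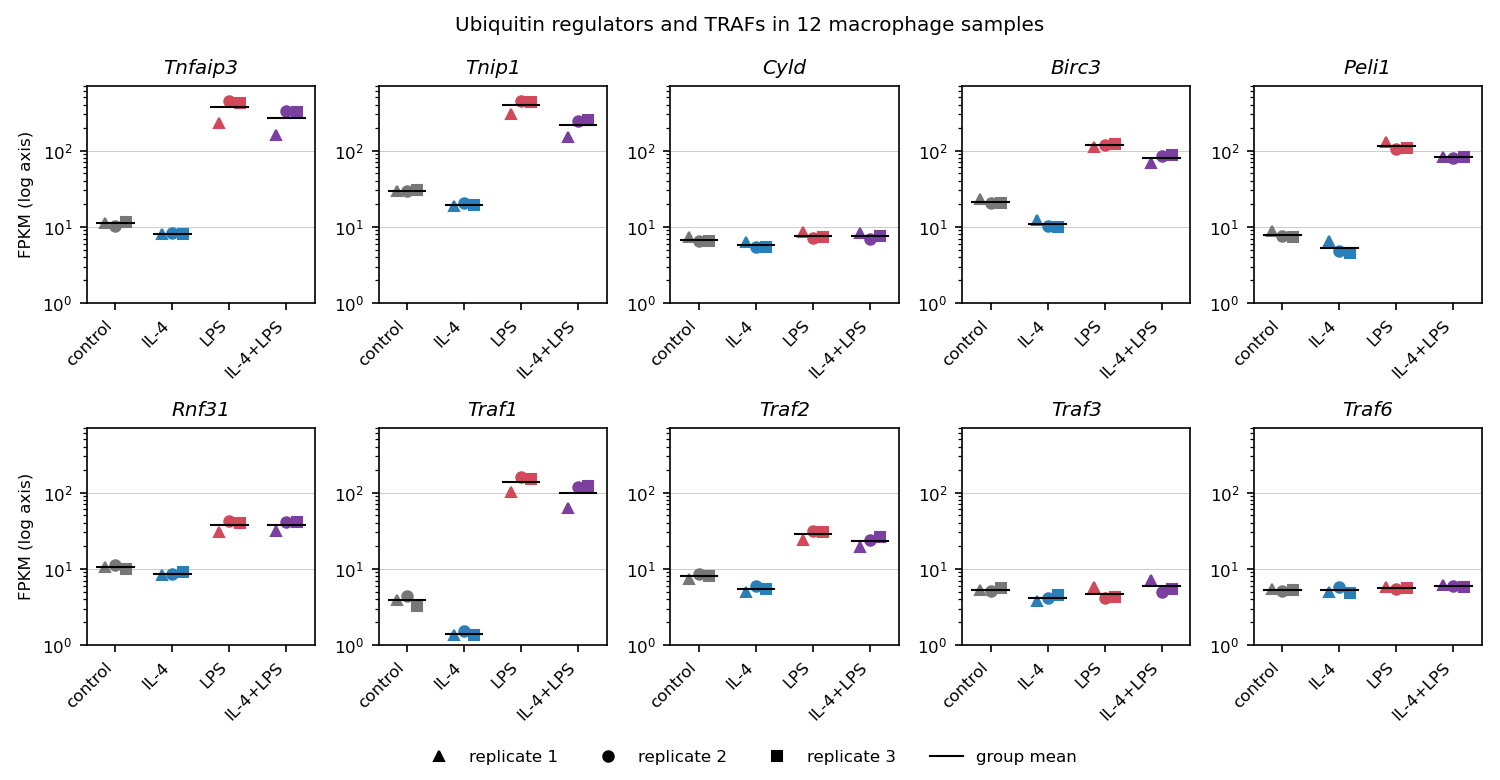
FPKM of the 10 genes in each of the 12 samples, on log axes, with triangles, circles and squares for replicates 1, 2 and 3 and black lines for group means. Tnfaip3, Tnip1, Birc3, Peli1, Rnf31, Traf1 and Traf2 lie higher in both LPS-treated groups than in either group without LPS, while Cyld, Traf3 and Traf6 stay between 3.81 and 8.52 FPKM throughout.

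The 3 ubiquitin ligases outside the TRAF family all rose with LPS. Peli1 (chr11:21091324-21150327, plus strand), a Pellino ligase that acts on IRAK and other signaling proteins, was 8.81, 7.57 and 7.29 FPKM in control and 129.6, 104 and 109 in LPS. The LPS samples were all far above the control samples, and the log2 fold change was 3.69 (SE 0.12, adjusted p = 3.85e-09). Birc3 (chr9:7848701-7873170, minus strand) encodes cIAP2, which TRAF2 brings to receptor complexes. It was 22.9, 20.6 and 20.5 FPKM in control and 112, 117 and 121 in LPS, a log2 fold change of 2.40 (SE 0.10, adjusted p = 1.52e-08). Of the 50-base words of its longest transcript, 7.3% occur in transcripts of another gene, the highest share among the 10, against 1.9% or less for the others. Rnf31 (chr14:55591790-55603671, plus strand) encodes HOIP, the catalytic subunit of LUBAC. It was 10.6, 11.2 and 9.87 FPKM in control and 30.6, 42.5 and 39.9 in LPS, a log2 fold change of 1.73 (SE 0.13, adjusted p = 8.7e-07). Irf9 on the same strand overlaps 2.1% of the exon bases of Rnf31.

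The TRAF genes split into a pair that rose and a pair that did not pass the test. Traf1 (chr2:34943258-34961772, minus strand), the family member without the RING domain of a ubiquitin ligase, was 3.92, 4.4 and 3.29 FPKM in control and 103, 160.1 and 149.8 in LPS. It was the least abundant of the 10 in control and, with a ratio of means of 35.5, the most induced on the FPKM scale. Its log2 fold change was 4.81 (SE 0.24, adjusted p = 4.74e-08). Traf2 (chr2:25517982-25546894, minus strand), the adaptor for TNF receptors and cIAPs, was 7.47, 8.44 and 8.15 FPKM in control and 23.5, 31.6 and 30.8 in LPS. No control and LPS samples overlapped, and the log2 fold change was 1.71 (SE 0.13, adjusted p = 1.09e-06).

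Traf6 and Traf3 lie on the branch points of TLR signaling, TRAF6 below MyD88 and the IRAK kinases and TRAF3 on the way to type I interferon. Traf6 (chr2:101678440-101700974, plus strand) was 5.44, 5.14 and 5.26 FPKM in control and 5.82, 5.50 and 5.67 in LPS, a log2 fold change of 0.09 (95% CI -0.07 to 0.24, adjusted p = 0.292). Traf3 (chr12:111166548-111267148, plus strand) was 5.34, 5.10 and 5.59 FPKM in control and 5.73, 4.21 and 4.23 in LPS. Replicates 2 and 3 were below every control sample and replicate 1 above them, and the log2 fold change was -0.16 (95% CI -0.45 to 0.13, adjusted p = 0.293). With replicates 2 and 3 only, Traf3 passed the test as lower (-0.28, adjusted p = 0.0093), in a fit that called 62.9% of all rows lower. The direction depended on scaling, since Traf3 was at 0.15 after median scaling and at 0.37 (adjusted p = 0.0126) after quantile normalization. Median scaling also put Cyld (0.48, adjusted p = 0.000796) and Traf6 (0.40, adjusted p = 0.000487) past the threshold as higher.

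In macrophages that had received IL-4, LPS raised 9 of the 10 genes and lowered none, with Traf6 the exception. The background was 15% of rows called higher and 57.9% called lower. The median log2 fold change was 2.39 over the 10 genes and -0.41 over all rows. Traf1 had the highest ratio, rising from 1.34, 1.52 and 1.35 FPKM in IL-4 to 62.6, 117 and 120.0 in IL-4+LPS, a 71.2-fold difference of means and a log2 fold change of 5.33 (SE 0.24, adjusted p = 2.51e-08). Tnfaip3 rose from 8.12, 8.37 and 8.03 FPKM to 161, 331 and 317, which was 33.0-fold (log2 fold change 4.81, adjusted p = 1.97e-07). Tnip1 and Peli1 followed with log2 fold changes of 3.35 and 3.74, and Birc3, Rnf31 and Traf2 with 2.76, 2.01 and 1.90.

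Small increases of Cyld and Traf3, neither of which passed the test in naive cells, passed it here. Cyld was 6.28, 5.47 and 5.52 FPKM in IL-4 and 8.23, 6.94 and 7.57 in IL-4+LPS, without overlap (0.34, SE 0.09, adjusted p = 0.00606). Traf3 was 3.81, 4.15 and 4.53 FPKM in IL-4 and 7.21, 5.04 and 5.45 in IL-4+LPS, also without overlap (0.41, SE 0.13, adjusted p = 0.0167). Without IL-4 replicate 1 or without IL-4+LPS replicate 1 the Traf3 call was lost, and its log2 fold change over all fits that left out a sample was 0.28 to 0.50. Traf6 was at 0.16 (95% CI 0 to 0.31, adjusted p = 0.0668). Whether the LPS response of any of these genes differed from that without IL-4 is tested by the interaction below.

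**Figure D2:**
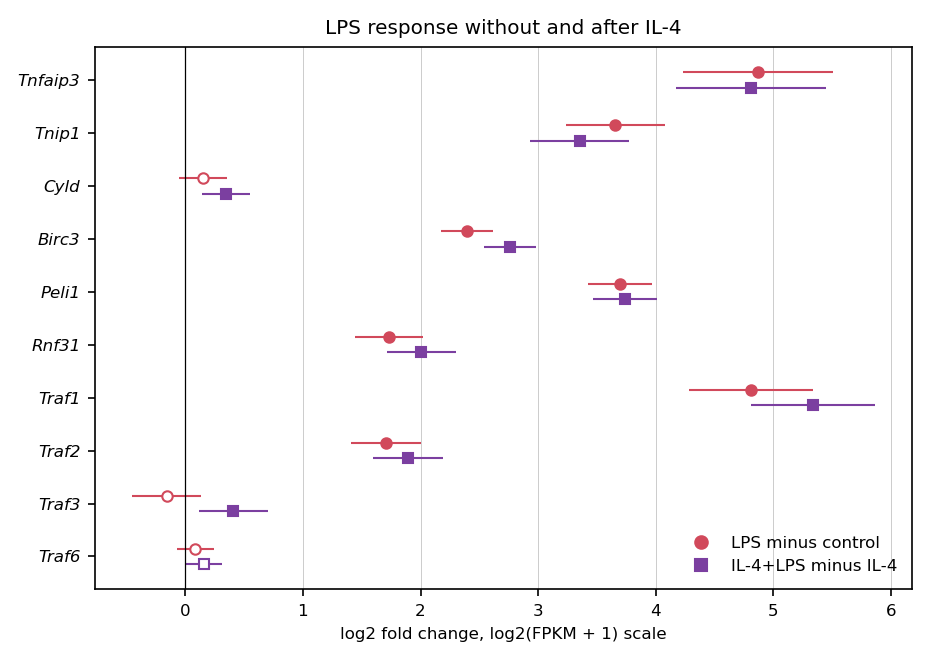
Log2 fold changes of the 10 genes in response to LPS, without IL-4 (circles) and after IL-4 (squares), with 95% confidence intervals from limma; filled symbols passed an adjusted p of 0.05. Traf1 and Tnfaip3 show the highest values in both settings, and Cyld, Traf3 and Traf6 lie near 0.

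IL-4 alone lowered 5 of the 10 genes and raised none, against a background of 21% of rows called lower and 16% called higher. The 5 were Birc3, Traf1, Peli1, Traf2 and Tnip1. The median log2 fold change was -0.44 over the 10 genes and -0.05 over all rows. Birc3 fell from 22.9, 20.6 and 20.5 FPKM to 12.4, 10.4 and 10.02, which was 0.51 of its control mean and a log2 fold change of -0.91 (SE 0.10, adjusted p = 6.39e-05). Traf1 fell to 0.36 of its control mean, with all IL-4 samples at 1.34 to 1.52 FPKM and all control samples at 3.29 FPKM or more (-1.01, SE 0.24, adjusted p = 0.00755). The pseudocount of 1 understates this change, because Traf1 is close to 1 FPKM in IL-4.

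Peli1 was 6.45, 4.78 and 4.51 FPKM in IL-4, below each control sample (-0.52, SE 0.12, adjusted p = 0.00756). Traf2 was 4.91, 6.04 and 5.43 FPKM (-0.48, SE 0.13, adjusted p = 0.0168), and Tnip1 was 19.0, 20.4 and 19.4 FPKM (-0.58, SE 0.19, adjusted p = 0.0352). In Tnip1 the IL-4 and control samples were each within 1.44 FPKM of one another and 9.08 FPKM apart, but the fit shares its error with the spread of the LPS-treated groups. The Tnip1 call was lost in each of the 6 fits that left out a control or IL-4 sample, where the log2 fold change was -0.61 to -0.56. Traf2 lost its call without control replicate 2 or IL-4 replicate 1.

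The 5 other genes did not pass the test. For 4 of them the IL-4 and control samples did not overlap, but the share of all rows that separate in this way was not computed. Tnfaip3 was 8.12, 8.37 and 8.03 FPKM in IL-4 and 10.2 to 11.7 in control (-0.40, 95% CI -1.03 to 0.24, adjusted p = 0.311). Rnf31 was 8.22, 8.50 and 9.14 FPKM in IL-4 and 9.87 to 11.2 in control (-0.26, adjusted p = 0.145). Cyld and Traf3 had log2 fold changes of -0.21 (adjusted p = 0.106) and -0.30 (adjusted p = 0.103). Traf6 overlapped, at 5.02, 5.77 and 4.87 FPKM in IL-4 (-0.02, 95% CI -0.17 to 0.14).

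How many genes IL-4 lowered depended on which samples set the error. With only the control and IL-4 samples in the fit, 8 of the 10 were called lower, beside 2378 of 10879 rows. Tnfaip3, Traf3 and Rnf31 were added, and the log2 fold change of Tnfaip3 was -0.40 with an SE of 0.07 (adjusted p = 0.00653). With replicates 2 and 3 only, 9 of the 10 were called lower, all but Traf6, beside 29.4% of all rows. In that fit Tnfaip3 was at -0.38 (adjusted p = 0.00346) and Cyld at -0.21 (adjusted p = 0.0277).

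In LPS-treated macrophages, IL-4 pretreatment lowered Tnip1, Birc3 and Peli1 and raised none of the 10. Of all rows, 15.8% were called lower and 15% higher, and the median was -0.38 over the 10 genes and -0.03 over all rows. Tnip1 was 303, 448 and 428 FPKM in LPS and 150.4, 244 and 249.4 in IL-4+LPS, 0.55 of the mean (-0.89, SE 0.19, adjusted p = 0.0053). Birc3 was 112, 117 and 121 FPKM in LPS and 69.5, 84.6 and 86.2 in IL-4+LPS (-0.54, SE 0.10, adjusted p = 0.00209). Peli1 was 129.6, 104 and 109 FPKM in LPS and 82.6, 79.8 and 82.7 in IL-4+LPS (-0.47, SE 0.12, adjusted p = 0.0137). None of these 3 genes had overlapping samples, but the share of all rows that separate in this way was not computed. All 3 calls held in each fit that left out a sample.

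Tnfaip3 and Traf1 were lower on average after IL-4 and overlapped. Tnfaip3 was 231, 445 and 426 FPKM in LPS and 161, 331 and 317 in IL-4+LPS, a ratio of means of 0.73 (-0.46, 95% CI -1.09 to 0.18, adjusted p = 0.264). Traf1 was 103, 160.1 and 149.8 FPKM in LPS and 62.6, 117 and 120.0 in IL-4+LPS, also 0.73 (-0.49, 95% CI -1.02 to 0.04, adjusted p = 0.151). In both genes the overlap came from replicate 1, whose LPS value was below replicates 2 and 3 of IL-4+LPS. With replicates 2 and 3 only, 6 genes were called lower, beside 26.1% of all rows, as Tnfaip3 (-0.43, adjusted p = 0.00215), Traf1 (-0.38, adjusted p = 0.0243) and Traf2 (-0.30, adjusted p = 0.00804) joined the first 3.

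Rnf31 was at nearly the same level with and without IL-4 once LPS was present. It was 30.6, 42.5 and 39.9 FPKM in LPS and 31.6, 41.6 and 40.5 in IL-4+LPS (0.01, 95% CI -0.28 to 0.30, adjusted p = 0.962). Cyld (-0.01, 95% CI -0.22 to 0.19) and Traf6 (0.05, 95% CI -0.10 to 0.21) likewise had differences close to 0. Traf3 was the only gene with a higher value by more than 0.1, at 0.27 (95% CI -0.02 to 0.56, adjusted p = 0.155). It was called higher with replicates 2 and 3 only (0.26, adjusted p = 0.025), beside 21.3% of all rows.

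**Figure D3:**
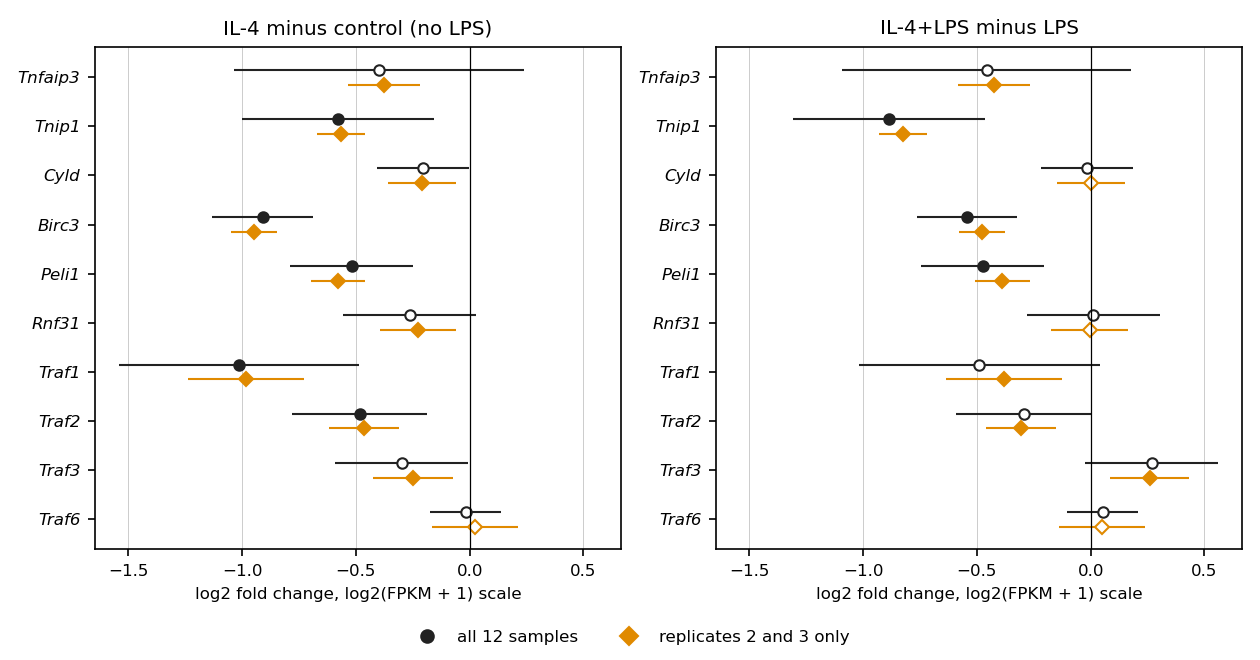
Log2 fold changes of the 10 genes for IL-4 against control (left) and IL-4+LPS against LPS (right), from all 12 samples (circles) and from replicates 2 and 3 only (diamonds), with 95% confidence intervals; filled symbols passed an adjusted p of 0.05. Most intervals are narrower without replicate 1, and Traf3 lies below 0 on the left and above 0 on the right.

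The interaction, the LPS response after IL-4 minus that without it, tests whether IL-4 changed the response itself on the log2 scale. None of the 10 genes passed, where 4.58% of rows were called with a positive and 4.63% with a negative value. The per-gene model without moderation also called none, and 2 of the 10 were below 0.05 before adjustment in limma. These were Traf3 (0.57, SE 0.19, adjusted p = 0.0878) and Birc3 (0.37, SE 0.14, adjusted p = 0.14). For Traf3, IL-4 went with a lower value before LPS (-0.30) and with a higher value in LPS (0.27). Tnfaip3 was at -0.06 (95% CI -0.96 to 0.84), an interval that reaches sizeable differences of either sign. Tnip1 was at -0.31 (95% CI -0.90 to 0.29) and Traf1 at 0.52 (95% CI -0.22 to 1.27).

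With replicates 2 and 3 only, 2 samples per group, most intervals narrowed and 4 of the 10 genes passed. The narrowing follows in part from leaving out replicate 1, which stood apart. Birc3 (0.47, adjusted p = 0.00222), Traf1 (0.60, adjusted p = 0.0293) and Traf3 (0.51, adjusted p = 0.0139) had positive values, and Tnip1 (-0.26, adjusted p = 0.0257) had a negative value. The same fit called 13.2% of rows positive and 12.6% negative. Tnfaip3 stayed at -0.05 (SE 0.09, adjusted p = 0.733).

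The sign of the estimate for several genes depended on the scale. In FPKM, LPS added 95.4 FPKM to Birc3 without IL-4 and 69.2 after it, a difference of -26.2 (SE 6.07, per-gene linear model, adjusted p = 0.0223). For Peli1 the gains were 106 and 76.4 FPKM, a difference of -30.0 (SE 7.84, adjusted p = 0.0348). These 2 genes were called smaller on the FPKM scale, beside 7.8% of all rows. On the log2 scale both had positive values, neither passing. These were 0.37 (95% CI 0.05 to 0.68) for Birc3 and 0.045 (95% CI -0.34 to 0.43) for Peli1, whose sign is thus unresolved. Traf1 and Traf2 changed sign in the same way without passing either test.

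**Figure D4:**
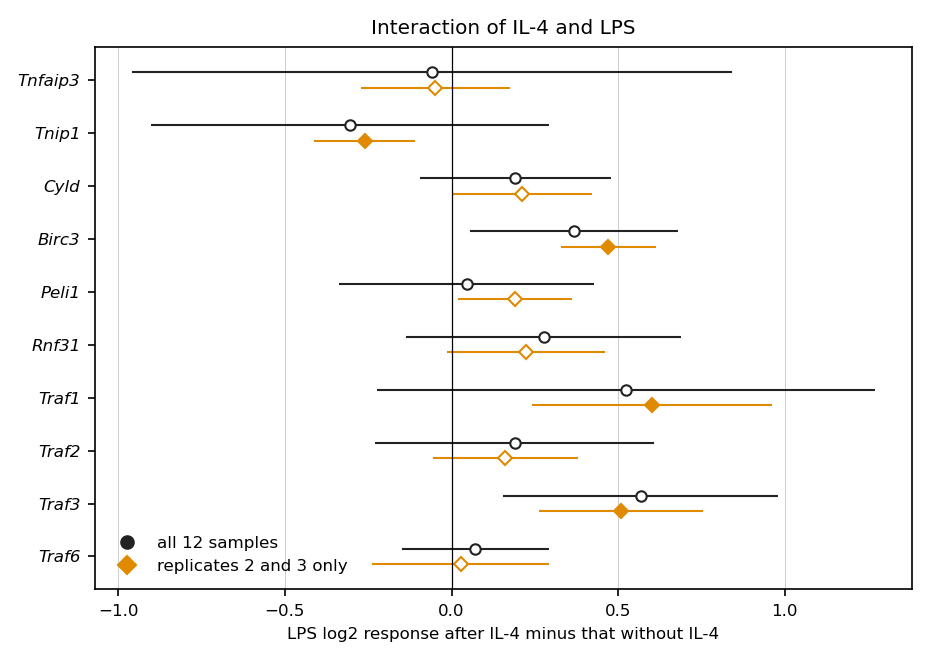
Interaction of IL-4 and LPS for the 10 genes on the log2 scale with 95% confidence intervals, from all 12 samples (circles, none passing an adjusted p of 0.05) and from replicates 2 and 3 only (diamonds, filled where they passed). Birc3, Traf1 and Traf3 lie above 0 and Tnip1 below 0 in both fits.

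Together the 10 mRNAs summed to 108.4 to 112.7 FPKM in control, 72.8 to 75.5 in IL-4, 952 to 1366 in LPS and 598 to 940.3 in IL-4+LPS. Tnfaip3 and Tnip1 made up most of the sum in LPS, with group means of 367 and 393 FPKM, and the 2 encode partners in 1 inhibitory complex. Traf1, at the 27.1st percentile of tested rows in control and the 12.8th in IL-4, was at the 95.1st in LPS. Traf6 stayed between the 33.9th and the 46.8th percentile in all groups.

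By pattern over the 12 samples (Pearson r of log2 values over all 11191 rows, given as a description because the samples share 4 groups), the rows most like Tnfaip3 were Car13 (r = 0.998), Acsl1 (0.998) and Nfkbib (0.997), the last encoding an NF-kB inhibitor. The rows most like Traf1 were Tnfaip2 (0.999), Nfkbia (0.998) and Pde4b (0.998), of which Nfkbia encodes the classical feedback inhibitor IkB-alpha. The nearest rows to Traf3 were Adap2 (0.875), Clcn7 (0.837) and Ptpro (0.828), and those to Traf6 were A930015D03Rik (0.913), Tagln (0.906) and Arl4a (0.855).

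A list of 50 other genes of the pathway was read beside the 10, and 49 of them were tested, Traf4 being at most 0.18 FPKM. LPS raised 22 and lowered 15 of these in naive cells, with a median log2 fold change of 0.01. After median scaling 26 were higher and 10 lower, and with replicates 2 and 3 only 23 were higher and 17 lower, beside 19.6% and 62.9% of all rows. The receptor-proximal group, with 4 of 9 higher and 4 lower, included Ripk2, a kinase of NOD signaling, whose mean rose from 5.60 to 104.5 FPKM (log2 fold change 3.997, SE 0.09), and Irak2 (2.59, SE 0.11), a kinase below MyD88. After IL-4, LPS raised 18 and lowered 20 of the 49, with Ikbke (2.03, SE 0.13) and Myd88 (1.76, SE 0.12) among those higher. The counts were 19 and 20 with replicates 2 and 3 only, beside 17.7% and 64.1% of all rows.

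The LUBAC partners of Rnf31 went the other way from it, by an amount close to the median of all rows. Rbck1, which encodes HOIL-1, had means of 30.5 FPKM in control and 20.0 in LPS (-0.59, SE 0.07, adjusted p = 3.08e-05), and Sharpin 26.6 and 18.3 (-0.52, SE 0.07, adjusted p = 4.03e-05). Rnf31 over the same samples rose from 10.6 to 37.7 FPKM, while lower calls were the majority over all rows, as given above. The median log2 fold change of the 2 partners was -0.55, beside -0.44 over all rows. After median scaling it was -0.20, beside -0.14 over all rows, and both partners were still called lower. After IL-4 both partners were again lower with LPS, Rbck1 by -0.55 and Sharpin by -0.34, although the Sharpin value was 0.01 after median scaling. These 2 partners make up the whole of their list, which was written with earlier results of these data known. They were named outside the rule used for the other pathway genes.

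IL-4 alone raised 6 and lowered 16 of the 49 pathway genes, where 16% of all rows were called higher and 21% lower. Replicates 2 and 3 alone gave 8 higher and 18 lower, beside 21.7% and 29.4% of all rows. Traf5, a TRAF of TNF receptor family signaling, was 7.57 to 8.82 FPKM in control and 24.0 to 27.7 in IL-4, without overlap (1.55, SE 0.10, adjusted p = 1.46e-06). It was thus opposite in sign to Traf1 and Traf2. Tifa, an adaptor that binds TRAF6, fell from a mean of 41.8 to 16.8 FPKM (-1.27, SE 0.11), Traf3ip3, which binds TRAF3, from 5.14 to 0.79 FPKM (-1.78, SE 0.15), and Ripk2 rose (1.19, SE 0.09).

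In LPS-treated cells, IL-4 lowered 17 and raised 3 of the 49, where 15.8% of all rows were called lower and 15% higher. Replicates 2 and 3 alone gave 24 lower and 6 higher, beside 26.1% and 21.3% of all rows. Of the 11 A20 partners and deubiquitinases, 6 were lower and none higher over all samples, and 7 were lower and 1 higher with replicates 2 and 3 only. Tnip3, encoding another ABIN protein, was 259, 388 and 408 FPKM in LPS and 120.1, 168 and 151 in IL-4+LPS. Tax1bp1, a ubiquitin-binding partner of A20, was 129, 128 and 146 FPKM in LPS and 61.7, 49.1 and 47.9 in IL-4+LPS (-1.34, SE 0.16, adjusted p = 0.000113), close to its 48.7 to 66.5 FPKM in control. Irak3, an inhibitor of IRAK signaling, fell most, from a mean of 60.9 to 16.6 FPKM (-1.81, SE 0.09, adjusted p = 3.92e-07). Tifa was again lower (-1.31, SE 0.11) and Traf5 again higher (1.51, SE 0.10).

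**Figure D5:**
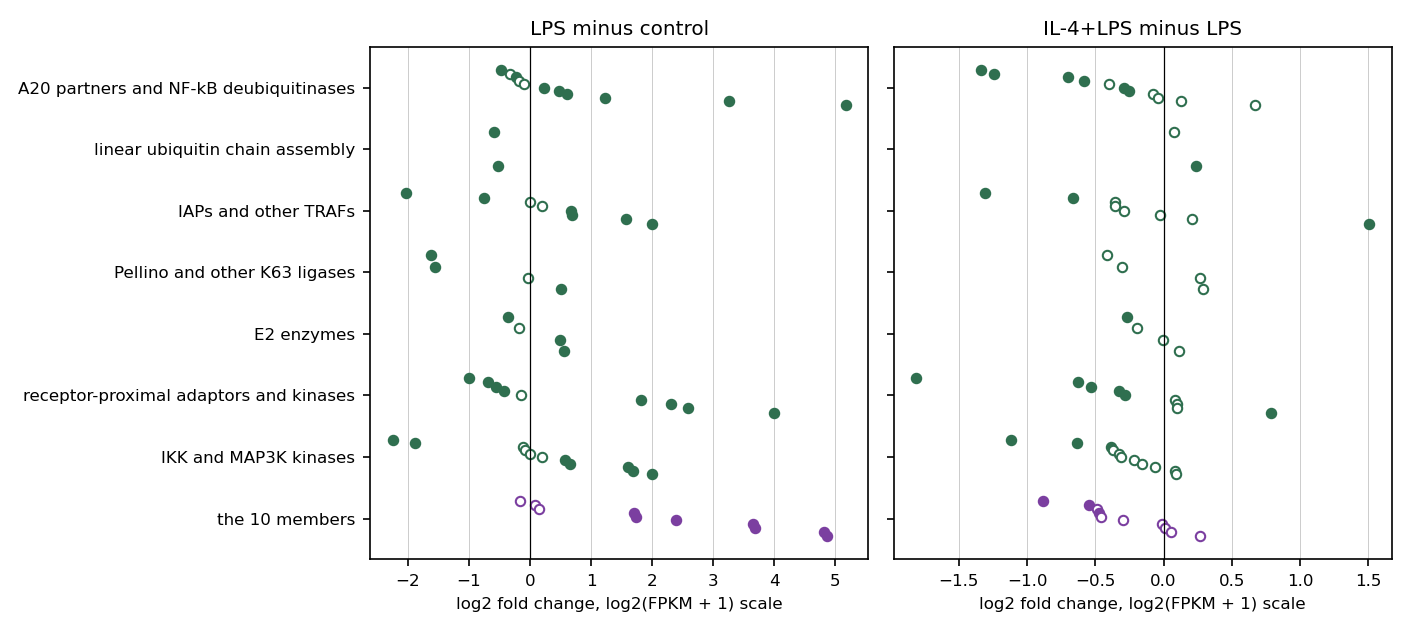
Log2 fold changes of 49 other pathway genes by group (green) and of the 10 genes described here (purple), for LPS against control (left) and IL-4+LPS against LPS (right); each point is 1 gene, filled where the adjusted p was below 0.05. Both LUBAC partners lie below 0 on the left, and the lowest points on the right are Irak3, Tax1bp1 and Tifa.

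The interaction passed for 9 of the 49, with a negative value (a lower or more negative LPS response after IL-4) for 7 and a positive value for 2, beside 4.63% and 4.58% of all rows. Replicates 2 and 3 alone gave 9 negative and 5 positive values, beside 12.6% and 13.2% of all rows. Tnip3 rose 9.88-fold with LPS in naive cells and 3.36-fold after IL-4 (interaction -1.54, SE 0.27, adjusted p = 0.00495). Tax1bp1 had an LPS response of 1.23 without IL-4 and 0.01 after it (interaction -1.22, SE 0.22, adjusted p = 0.00687). Tnip2, which encodes the remaining ABIN protein, rose without IL-4 (0.48) and fell after it (-0.27, but 0.08 after median scaling), an interaction of -0.75 (SE 0.13, adjusted p = 0.0064). Tnfaip3, whose product these proteins bind, had an interaction of -0.06, and the gene-by-gene difference between Tnfaip3 and its partners was not tested. Traf3ip3 had the highest value, 1.49 (SE 0.21, adjusted p = 0.00187), but its samples were at 0.13 to 0.72 FPKM in both LPS-treated groups, where a pseudocount of 1 limits how far a log2 value can fall.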

How the data were processed

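Poly-A libraries of 12 BMDM samples were sequenced as paired reads. Per the study's methods and the submitters' processing notes, the authors aligned reads to mm10 with TopHat2 2.0.7 and computed the deposited FPKM values with Cufflinks 2.0.2, 1 table per sample. The annotation was not given in the sources used here. Because each sample is scaled to its own mapped fragments, a shift in RNA composition moves the values of all other genes.

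Rows (23847) were joined on symbol and locus, and 1 was added to each start. Rows with at least 1 FPKM in at least 1 sample were tested as log2(FPKM + 1), which understates changes of low genes. limma 3.58.1 in R 4.3.3 fitted group means over 12 samples (eBayes with an intensity trend), with 5 contrasts and Benjamini-Hochberg adjustment over all 11191 rows in each. The script was tested on simulated data. Replicate numbers were not treated as pairs in the main fit, since the labels do not tie them to animals and deviations of same-numbered samples correlated at 0.002 to 0.386.

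The 10 genes, the pathway list and the alternatives were chosen with earlier results of these data known. Pathway genes named had to pass in the interaction or in IL-4+LPS against LPS, at most the 4 with the largest change per contrast. Rbck1 and Sharpin, a list of 2, were named outside this rule. Promoter windows were RefSeq's, and shared sequence was measured on GENCODE transcripts. Plots used matplotlib 3.10.9 in Python 3.11.15.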

Additional observations from a re-analysis of the deposited data

Results flagged for a closer look

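Among the genes named, the LPS response differed with and without IL-4 by the interaction test for 5, none of them among the 10 ubiquitin regulators and TRAFs. Passing this test was a way for a pathway gene to be named, whereas the 10 were named regardless. The 5 therefore cannot be set against the 10. The interactions on the log2 scale were -1.54 for Tnip3, -1.22 for Tax1bp1, -0.75 for Tnip2, -0.64 for Irak3 and 1.49 for Traf3ip3. In all, 7 of the 49 pathway genes had a negative and 2 a positive interaction, beside 4.63% and 4.58% of all rows. With replicates 2 and 3 only, 9 and 5 did, beside 12.6% and 13.2% of all rows. Irak3 rose from 11.6 to 60.9 FPKM with LPS in naive cells and from 4.57 to 16.6 FPKM after IL-4 (SE of the interaction 0.13, limma adjusted p = 0.0132). The value of Traf3ip3 rests on levels below 1 FPKM with LPS, and with a pseudocount of 0.1 it was 1.68 and no longer passed (adjusted p = 0.0509).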

How the results depend on the processing

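The LPS calls in naive cells (7 higher) were 7 to 10 in all alternatives and 7 whichever sample was left out, and those after IL-4 (9 higher) were 8 to 10. Beside these, 1710 to 2966 of all rows were called higher with LPS in naive cells and 1541 to 2629 after IL-4. Replicates 2 and 3 only gave 1 gene lower with LPS, 9 lower with IL-4, 6 lower and 1 higher in IL-4+LPS against LPS, and interactions for 3 higher and 1 lower. The shares of all rows called were, in that order, 62.9%, 29.4%, 26.1%, 21.3%, 13.2% and 12.6%. With only the groups compared, IL-4 lowered 8, beside 2378 of 10879 rows. Leaving out 1 sample gave 3 to 6 genes lower with IL-4, 3 to 4 lower and 0 to 1 higher in IL-4+LPS against LPS, and 0 to 2 positive interactions, the 2 (Birc3 and Traf1) arising without IL-4+LPS replicate 1. In these fits, of 11128 to 11185 rows, 1742 to 2577 were lower with IL-4. In IL-4+LPS against LPS 1329 to 2058 rows were lower and 1325 to 1762 higher, and 307 to 622 had positive interactions. Without LPS replicate 1, Traf3 was called in the interaction and higher in IL-4+LPS against LPS, and Traf2 was called lower there.

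With the replicate number as a block, 1 interaction was positive, that of Traf3 (0.57, adjusted p = 0.0456), beside 1145 of 11191 rows. In IL-4+LPS against LPS 4 genes were lower (Traf2 added, adjusted p = 0.0105), beside 2667 rows. Cyld was called higher with LPS (0.15, adjusted p = 0.0163) and lower with IL-4 (-0.21, adjusted p = 0.00791). Of the other pathway genes the block fit called 26 lower and 4 higher in IL-4+LPS against LPS, beside 2667 and 2287 of 11191 rows. With IL-4 it called 20 lower and 9 higher, beside 3183 and 2402 rows. It gave 9 negative and 4 positive interactions, beside 1095 and 1145 rows. No label ties a number to an animal or experiment, so the numbers were not taken as pairs in the main fit. Even so, 11 of 18 same-numbered pairs had deviations correlated over 0.1. In FPKM, 2 interactions were lower, and the values were -26.2 for Birc3, -35.1 for Traf1, -2.93 for Traf2 and -30.0 for Peli1.

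Other sign changes were few. Quantile normalization gave 0.028 for Cyld and -0.005 for Rnf31 in IL-4+LPS against LPS, 0.37 for Traf3 with LPS, 0.11 for Traf6 with IL-4, and interactions of -0.012 for Traf6 and -0.063 for Peli1. Median scaling gave 0.15 for Traf3 with LPS, 0.002 for Traf6 with IL-4 and 0.012 for Sharpin with LPS after IL-4. Replicates 2 and 3 only gave 0.023 for Traf6 with IL-4 and -0.004 for Rnf31 in IL-4+LPS against LPS. Over fits that left out 1 sample, the interactions ranged from -0.36 to 0.28 for Tnfaip3 and from -0.039 to 0.178 for Peli1, Traf6 with IL-4 from -0.08 to 0.023, and in IL-4+LPS against LPS Cyld from -0.069 to 0.054 and Rnf31 from -0.13 to 0.14. The causes were not tested. Without fragment counts no counting error could be given.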
